A study of Mus musculus with 4 samples.

Results

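Complement components and receptors were followed as 10 genes of the 32285 counted, chosen by symbol: C1qa, C1qb, C1qc, C4b, C2, C3, Cfb, Cfp, C3ar1 and C5ar1. All 10 had UMIs (unique molecular identifiers, here counted RNA molecules) in each of the 4 libraries. The libraries came from brains of female C57BL/6 mice that had received intracranial EO771 cells, a mouse mammary tumour line, labelled with GFP. Mice received vehicle or SCDi, the treatment of a study on targeting SCD, for 14 days. For each treatment 3 mice were pooled and sorted into a CD45+/GFP- immune library and a CD45-/GFP+ tumour library, both DAPI-. Each treatment and sort is therefore 1 library without a replicate, all from 1 tumour line, and every difference between treatments below is a difference between 2 libraries.

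Complement is a cascade of plasma and tissue proteins that tags surfaces for uptake and recruits leukocytes. C1q, built of the chains encoded by C1qa, C1qb and C1qc, starts the classical pathway, and C4 and C2 then form its C3-cleaving convertase. C3 is the hub of all pathways, factor B (Cfb) and properdin (Cfp) build and stabilise the alternative convertase, and the fragments C3a and C5a act through the receptors encoded by C3ar1 and C5ar1. In brain, microglia are a known source of C1q.

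The 4 libraries held 6777 to 9034 barcodes with medians of 15293.5 and 16548 UMIs in the immune and 41124 and 36680.5 in the tumour libraries, and pairs of libraries shared 9 to 23 barcodes. Marker gating named 5480 of 6959 kept immune cells under vehicle and 5209 of 6453 under SCDi, and 7289 and 8582 malignant cells. Classes are ranges cut from a count of markers: of the macrophages, 337 of 1880 and 376 of 1781 led the next list by a single marker, and monocytes had a median of 4 macrophage markers. Because the gate counts these markers, their levels describe the classes and are no check of them: the summed microglia markers had 2842 and 3419 CPM (the UMIs scaled to a class total of 1000000) in microglia and 130 and 116 CPM in macrophages. In malignant cells the epithelial list had 1503 and 1421 CPM, the macrophage list 5.25 and 5.28 CPM and Ptprc 0.0131 CPM under vehicle and no UMI under SCDi. Ptprc, which encodes CD45 and was no gating marker, had a UMI in 98.0% to 99.7% of microglia, macrophages and monocytes.

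All 3 C1q genes lie side by side on the minus strand of chromosome 4 (mm10, GENCODE M21): C1qb at 136880129 to 136886187, C1qc at 136889804 to 136893065 and C1qa at 136895917 to 136898803. Because these genes shared their order over microglia, macrophages and monocytes below, the 250 bases before the RefSeq start of C1qb are shown. They are chr4:136886201-136886450 (GRCm38.p6), lie outside the gene as GENCODE draws it, and run 5′ to 3′ on the gene's strand. Capitals mark a match to GAGGAA, the core of sites for PU.1-type factors, on either strand.
C1qb: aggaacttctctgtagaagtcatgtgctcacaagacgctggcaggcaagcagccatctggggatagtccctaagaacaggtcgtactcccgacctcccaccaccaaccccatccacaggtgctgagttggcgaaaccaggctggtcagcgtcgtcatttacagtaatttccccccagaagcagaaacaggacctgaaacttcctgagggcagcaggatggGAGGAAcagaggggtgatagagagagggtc
The match starts 30 bases before the RefSeq start. Of 32851 promoter windows of the same length, 23.3% hold GAGGAA, so the match is a description of the letters only. The window did not hold TGCTGAC (3.81% of windows), GAAA repeated after any 2 bases (2.98%), TGANTCA (6.75%) or TATAAA (12.4%), which were searched on both strands. Promoter windows were matched for 6 of the 10 members. The C1qc window also held 1 match to GAGGAA, and those of C3, Cfp, C3ar1 and C5ar1 held none.

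C1q RNA was highest in microglia and next in macrophages in both treatments. In microglia C1qa had 6927 CPM (95% interval, for counting error only, 6864 to 6989) under vehicle and 6901 CPM (6845 to 6958) under SCDi. Macrophages had 3214 and 3618 CPM of C1qa, and monocytes 455 and 595 CPM. C1qb followed the same order, with 6659 and 6243 CPM in microglia, 3484 and 3715 CPM in macrophages and 591 and 760 CPM in monocytes. C1qc had 4753 and 4815 CPM in microglia, 1903 and 2138 CPM in macrophages and 285 and 371 CPM in monocytes. Macrophages outnumbered microglia, with 1880 against 298 cells under vehicle and 1781 against 417 under SCDi. They held 65.0% and 65.1% of the C1qa UMIs of gated immune cells, and microglia 26.6% and 25.6%. All barcodes of the immune libraries, gated or not, held 257028 and 328984 C1qa UMIs. Gated macrophages had 115342 and 148700 of these, and gated microglia 47150 and 58364.

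The C1q chains were found together in microglia cell by cell. After thinning every cell to 2000 UMIs, 97.3% and 96.4% of microglia, 63.7% and 68.6% of macrophages, and 9.10% and 12.4% of monocytes had UMIs of all 3 chains under vehicle and SCDi. Unthinned, the shares were 98.0% and 97.8%, 77.0% and 83.1%, and 24.1% and 31.3%. Thinning left out 4 to 38 shallower cells of each of these classes. In monocytes the top 10% of cells held 89.8% and 85.6% of C1qa UMIs, against 41.7% and 37.4% in macrophages. The chain mix differed by class: C1qb made up 36.3% and 34.8% of C1q UMIs in microglia, 40.5% and 39.2% in macrophages, and 44.4% and 44.0% in monocytes. The binomial intervals of these shares did not overlap between the 3 classes in either treatment. They count each UMI as a separate draw and leave out variation between cells and mice.

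Lymphocytes, which are not a known source of C1q, were taken as the background level. Summed C1q had 188 and 197 CPM in T cells, 305 and 561 CPM in NK cells and 194 and 185 CPM in B cells, after mixed cells had been removed by a rule set once these levels had been seen. T cells with at least 4 macrophage markers, which were removed, had 3385 and 3759 CPM. The 3 dendritic cell classes with at least 50 cells in both libraries were below the T cell level, with 111 to 155 CPM, and are read as background too. The origin of the C1q RNA in lymphocytes and dendritic cells was not tested. Type 1 conventional dendritic cells, with only 17 cells, had 409 CPM under SCDi. After thinning, 16.6% and 17.5% of T cells had a C1qa UMI, against 72.1% and 75.5% of macrophages. Unthinned, 51.5% and 57.1% of T cells and 87.5% and 91.5% of macrophages had one. The unthinned median depths were 11329 and 10505 UMIs in T cells and 17224.5 and 20737 UMIs in macrophages. In malignant cells C1qa had 36 and 12 UMIs in all, 0.118 and 0.0365 CPM.

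**Figure D1:**
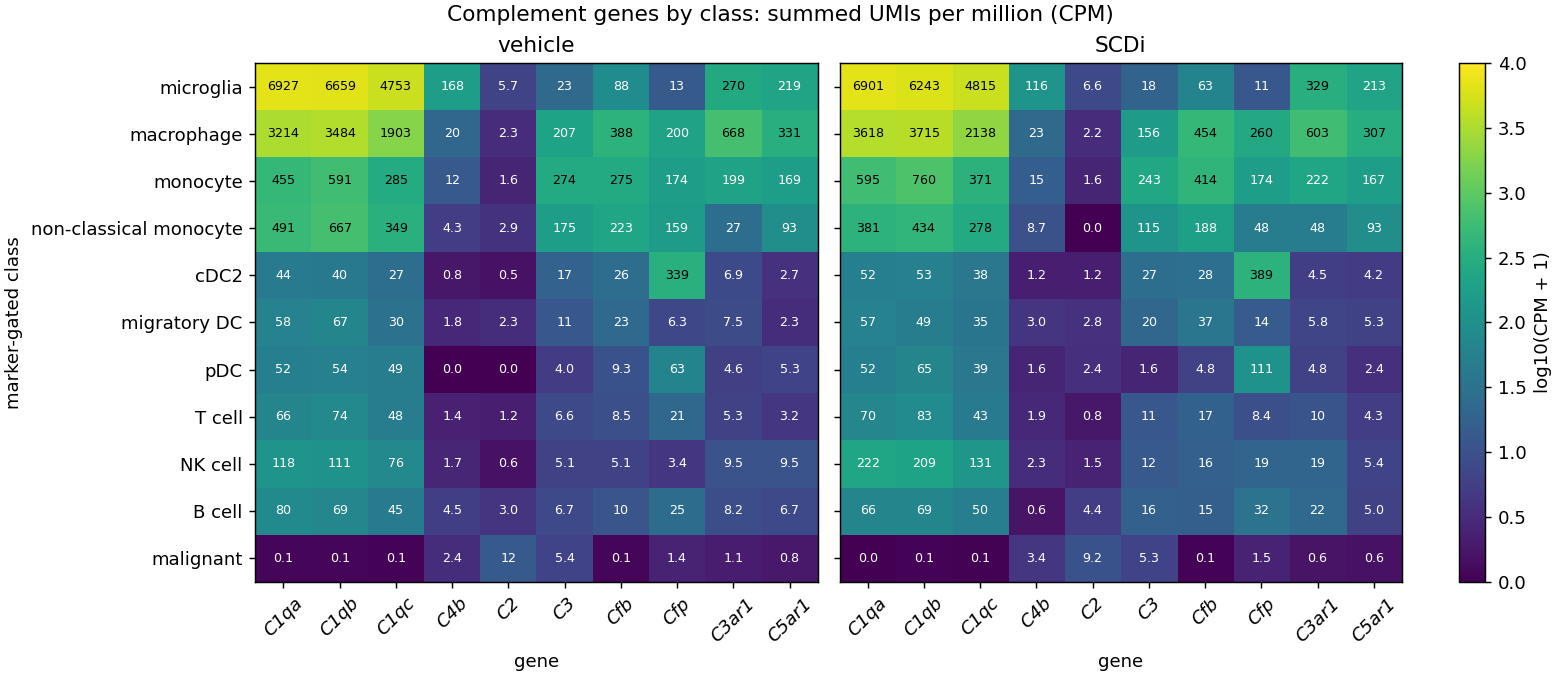
Heat map of CPM for the 10 complement genes (columns) in 11 marker-gated classes (rows), vehicle left and SCDi right, each cell 1 pooled library, coloured by log10(CPM + 1) with the CPM printed. C1q genes are highest in microglia, C3 in monocytes, Cfb and C3ar1 in macrophages, Cfp in cDC2 and C2 in malignant cells in both treatments.

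C4b and C2, whose products form the classical convertase, were highest in different classes. C4b (chr17:34728380-34743882) was highest in microglia, with 168 CPM (159 to 178) and 116 CPM (109 to 124), against 19.7 and 23.0 CPM in macrophages. It was uneven among microglia, whose top 10% of cells held 47.2% and 57.7% of the C4b UMIs. C2 (chr17:34862604-34898265) was low everywhere, and its highest class was the malignant cells, with 12.5 CPM (12.1 to 12.9) and 9.22 CPM (8.89 to 9.55). Microglia had 5.73 and 6.62 CPM of C2 and macrophages 2.26 and 2.19 CPM. C2 UMIs were spread over many tumour cells: 34.6% and 26.1% of malignant cells had at least 1. C2 overlaps the counted gene Zbtb12 on the other strand, and no counted gene on its own strand. C4b is nearly identical to the counted gene C4a, so reads of C4a and C4b may have been misassigned or lost. C4a, singled out after its values were seen, had 2 UMIs in microglia in each treatment, and 841 and 1667 UMIs in malignant cells, where C4b had 727 and 1106.

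C3 and Cfb came from monocytes and macrophages. C3 (chr17:57203970-57228136) had 274 CPM (268 to 280) and 243 CPM (238 to 249) in monocytes, 207 and 156 CPM in macrophages, and 175 and 115 CPM in non-classical monocytes. Microglia had only 23.1 and 18.0 CPM of C3, and T cells 6.62 and 11.4 CPM. Malignant cells had 5.35 and 5.34 CPM of C3, from 1637 and 1753 UMIs. Cfb (chr17:34856374-34862518) was highest in macrophages, with 388 CPM (382 to 394) and 454 CPM (448 to 461), followed by monocytes with 275 and 414 CPM. Microglia had 87.8 and 62.8 CPM of Cfb, malignant cells 0.121 and 0.100 CPM, and T cells 8.49 and 16.8 CPM. Monocytes and macrophages together thus dominated both genes, while the C1q-rich microglia were low in them.

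Cfp (chrX:20925454-20931555) stood apart, as its highest class was cDC2, the conventional dendritic cells marked by Cd209a and Flt3. It had 339 CPM (321 to 359) and 389 CPM (368 to 410) in cDC2, 200 and 260 CPM in macrophages, 174 and 174 CPM in monocytes, and 12.6 and 11.2 CPM in microglia. Plasmacytoid dendritic cells had 63.5 and 111 CPM and migratory dendritic cells 6.32 and 13.6 CPM. Since cDC2 were few (209 and 169 cells), macrophages still held 51.1% and 58.5% of the Cfp UMIs of gated immune cells. The cDC2 held 8.80% and 7.14%.

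Both anaphylatoxin receptors were highest in macrophages among classes of at least 50 cells in both libraries. C3ar1 (chr6:122847138-122856161) had 668 CPM (660 to 677) and 603 CPM (596 to 611) in macrophages, 270 and 329 CPM in microglia, and 199 and 222 CPM in monocytes. In non-classical monocytes it had 26.5 and 48.2 CPM, and in T cells 5.26 and 10.0 CPM. C5ar1 (chr7:16246743-16259540) had 331 CPM (325 to 337) and 307 CPM (301 to 312) in macrophages, 219 and 213 CPM in microglia, and 169 and 167 CPM in monocytes. Neutrophils, below the minimum with 70 and 49 cells and named after their values were seen, had more C5ar1, with 628 CPM (540 to 728) and 660 CPM (557 to 776). Their C3ar1 rested on 4 and 7 UMIs. C3ar1 detection was at a like share in macrophages with and without C3: after thinning, 68.2% and 63.6% of macrophages with a C3 UMI also had a C3ar1 UMI, against 67.2% and 63.7% of those without.

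The members formed different curves between monocyte-like and macrophage-like cells. The cells ordered were monocytes, macrophages, and cells in which either list tied for the highest count, with each other or with another list. Their order was the number of macrophage markers minus the number of monocyte markers with a UMI, in 13 bins of 156 to 411 cells. C1qa went from 48.0 CPM at -6 to 4701 CPM at 6 under vehicle, and from 49.1 to 5751 CPM under SCDi. C3ar1 went from 35.4 to 726 CPM and from 58.4 to 591 CPM. C3 stood at 308 and 205 CPM at -6 and still at 299 and 209 CPM in bin 1, and then fell to 148 and 77.3 CPM at 6. Cfb was highest in the middle, at 560 and 611 CPM in bin 1, against 145 and 173 CPM at -6 and 225 and 238 CPM at 6. The bins rest on the gating markers, and their median depth went from 13577.5 to 21430.5 UMIs under vehicle and from 14012 to 29059 under SCDi, whose part in these curves was not tested.

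**Figure D2:**
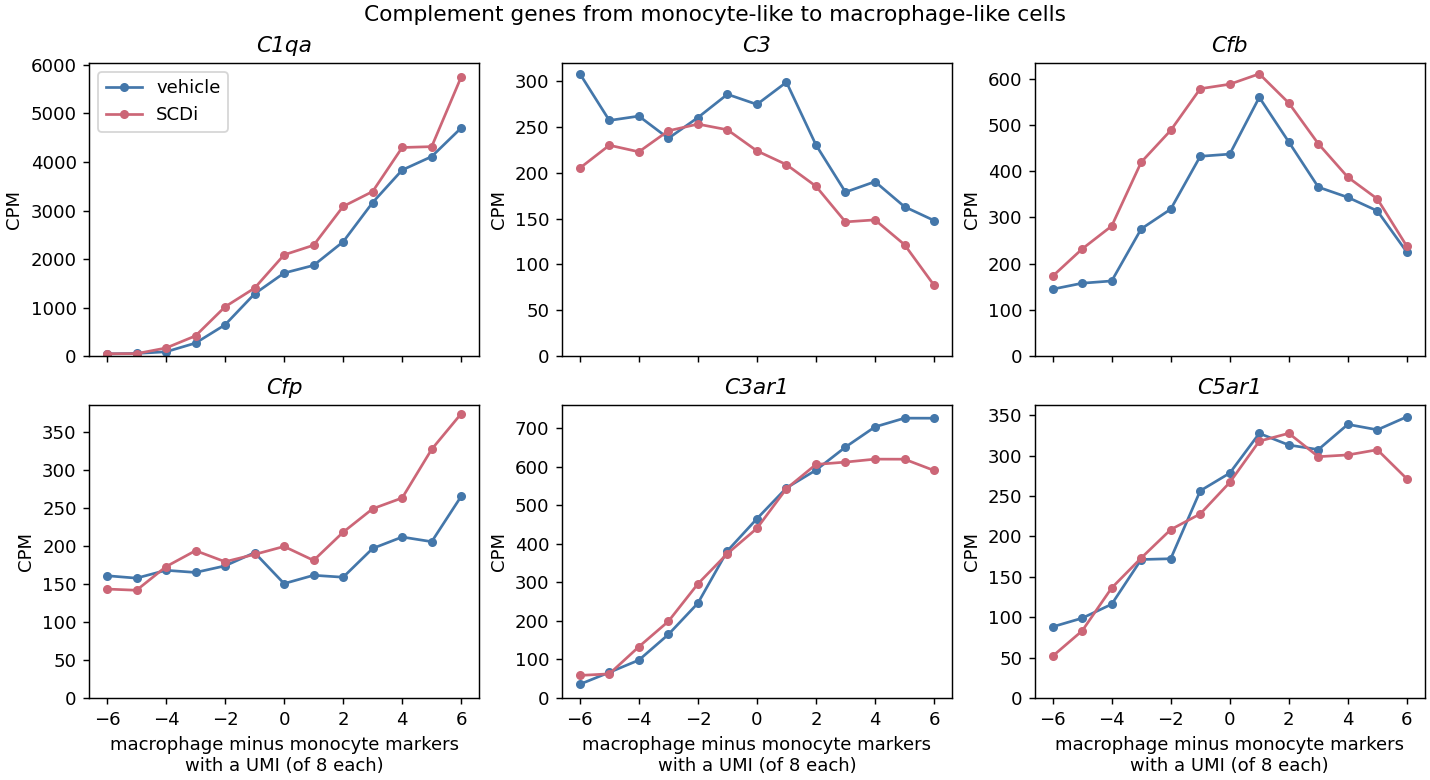
CPM (vertical axes) of 6 complement genes against macrophage minus monocyte markers with a UMI (horizontal axes, 13 bins), 1 point per bin and pooled library, vehicle blue and SCDi red. C1qa and C3ar1 climb to the right, C3 declines in the right part, and Cfb peaks in the middle with the SCDi points above the vehicle points in all 13 bins.

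Within a class, some members differed between cells with and without interferon or Spp1 markers, and the pairs given here were chosen after their values were seen. States were cells with at least 2 of 4 state markers (for cycling, at least 1 of Mki67 and Top2a) after thinning. Monocytes in the interferon gamma state (Cxcl9, Gbp2b, Ciita, Nos2) had 538 CPM of Cfb against 259 CPM in the others under vehicle, a log2 ratio of 1.06 (0.95 to 1.16), and 783 against 389 CPM under SCDi, 1.01 (0.94 to 1.09). Macrophages in this state had 363 against 197 CPM of C3 under vehicle, 0.88 (0.77 to 0.99), and 328 against 150 CPM under SCDi, 1.13 (1.00 to 1.26). C5ar1 was lower in these macrophages, by log2 ratios of -0.50 and -0.25, and so was C1qa, at 2905 against 3235 CPM and 2793 against 3651 CPM. C1qa was also lower in type I interferon macrophages, at 2977 against 3271 CPM and 3076 against 3771 CPM. Monocytes in the Spp1 state (Spp1, Pdpn, Edn1, Inhba) had 461 against 185 CPM of C3ar1 and 335 against 161 CPM of C5ar1 under vehicle, and 472 against 205 and 341 against 156 CPM under SCDi. In Spp1-state macrophages Cfb was at 385 against 389 CPM under vehicle and 620 against 443 CPM under SCDi, and C3 was at 190 against 208 and 167 against 156 CPM. Lipid-laden monocytes (Apoc2, Fabp5, Fabp4, Cd36) had 665 against 428 CPM of C1qa under vehicle and 1069 against 547 CPM under SCDi.

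In malignant cells C2 followed type I interferon markers (Rsad2, Ifit1, Ifit3, Cmpk2). The 191 vehicle cells in this state had 31.3 CPM of C2 against 11.96 CPM in the rest, a log2 ratio of 1.39 (1.19 to 1.57). The 185 SCDi cells had 23.9 against 8.88 CPM, 1.43 (1.20 to 1.65). C3 was also higher in them, at 8.73 against 5.27 CPM and 8.90 against 5.25 CPM, from 69 and 67 UMIs in the state. C2 in cycling and other malignant cells differed little, at 12.5 and 12.4 CPM under vehicle and 9.64 and 8.90 CPM under SCDi.

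**Figure D3:**
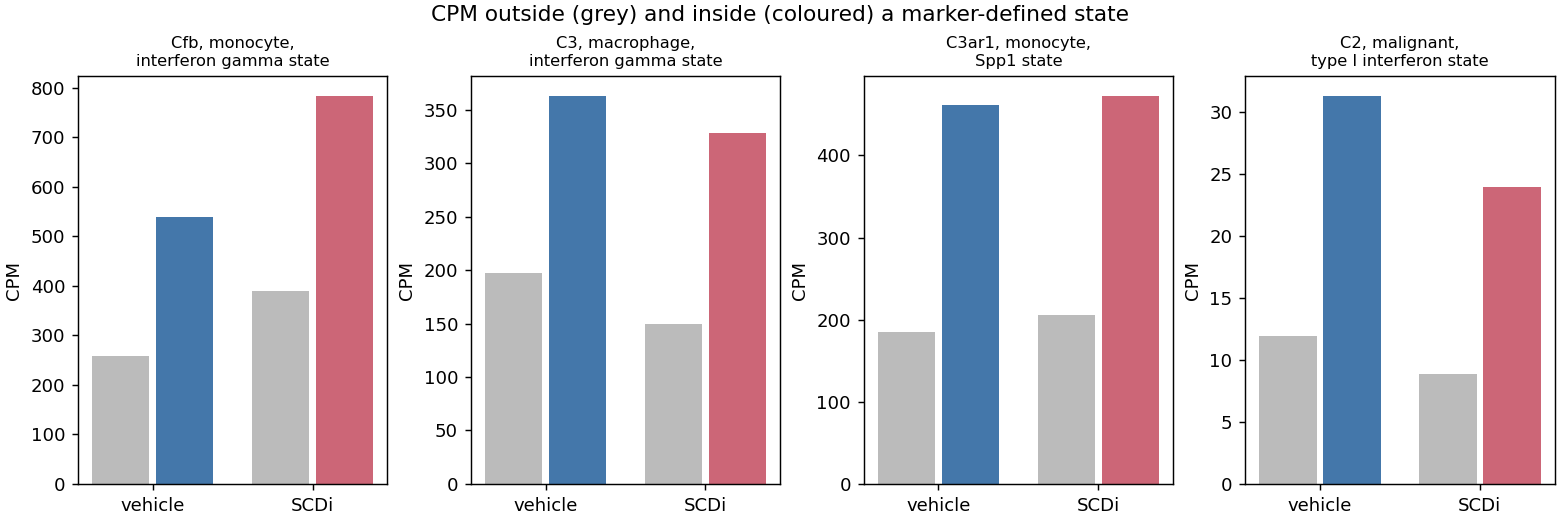
CPM (vertical axes, from 0) of 4 gene and class pairs, chosen after their values were seen, in cells outside (grey) and inside (coloured) a marker-defined state, vehicle and SCDi, 1 pooled library per pair of bars. In each pair the coloured bar is above the grey bar in both treatments, as for C2 at 31.3 against 11.96 CPM.

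The 5 genes most like each pattern were sought among 6249 genes over 20 points, the 10 immune classes in both libraries, as Pearson's r of log2(CPM + 1). Points of 1 library share its depth and free RNA, so these are descriptions. Nearest to summed C1q were Plod1, Itgb5, Abcc3, Stab1 and Mertk, an uptake receptor (r 0.96 to 0.97). C3 was nearest to Adam9, Tgfbi, Lyz2, Lst1 and Clec4a3 (0.94 to 0.97), and Cfb to Lst1, Plin2, Adam9, Tlr13 and Clec4a2 (0.94 to 0.96). C3ar1 was nearest to the chemokine genes Ccl2, Ccl12 and Ccl7 with Abcc3 and Stab1 (0.94 to 0.99). C5ar1 was nearest to Apoe, Slc11a1, Fcgr3, Ccl2 and Rab20 (0.97 to 0.98). Cfp had weaker neighbours, Smdt1, Gsn, Copz1, Spon1 and Trim30b (0.86 to 0.92).

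Of 41 other complement genes, 15 reached 20 CPM in some class. None of 6 C1 and lectin proteases and none of 7 terminal components did. Among fluid regulators, Clu had 103 and 89.7 CPM in malignant cells and Serping1 31.2 and 10.7 CPM in the few endothelial cells. Of the lectins, Colec12 had 29.2 and 13.5 CPM in microglia. Of the membrane regulators, Cd55 had 163 and 118 CPM in B cells, Cr1l 132 and 109 CPM in NK cells, Cd46 23.2 and 21.4 CPM in B cells and Cd59a 17.2 and 29.1 CPM in plasmacytoid dendritic cells. Of the other receptors, Cr2 had 64.5 and 25.8 CPM in B cells and C5ar2 25.3 and 16.3 CPM in macrophages and 24.8 and 27.4 CPM in microglia. The integrin genes Itgam, Itgb2 and Itgax, with Lrp1 and Cd93, were also above 20 CPM in macrophages. Past 1.5-fold between treatments were Colec12 in microglia (1 of 8 other genes, log2 ratio -1.11) and C5ar2 in macrophages (1 of 7, -0.64), both lower under SCDi, and 0 of 7 in monocytes. In cDC2 3 of 7 were lower, in B cells 2 of 6, with Cr2 at -1.31, and in non-classical monocytes 1 of 7. In migratory dendritic cells 2 of 4 were higher and in plasmacytoid dendritic cells 1 of 4. None passed in NK cells (0 of 5), T cells (0 of 2) or malignant cells (0 of 3). The shares of all genes past 1.5-fold in these classes stand beside the members below.

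Between treatments, a ratio was counted as past 1.5-fold only if 1 or both libraries had at least 20 CPM of the gene. Cfb in monocytes was the only member past 1.5-fold in the 3 large phagocyte classes. It went from 275 to 414 CPM, a log2 ratio of 0.59 with a counting interval (0.55 to 0.63) that spans 1.5-fold. The ratio was 0.57, just below 1.5-fold, when CPM was averaged over single cells. That is 1 of 8 members, where 1.33% of all genes passed in monocytes in either direction. No member passed in macrophages, of 9 (background 1.68%), or in microglia, of 8 (1.96%). Cfb in monocytes was higher under SCDi inside and outside the type I interferon state (0.50 and 0.61) and the interferon gamma state (0.54 and 0.59). The type I interferon state held 33.1% of vehicle and 38.3% of SCDi monocytes. Over the 13 bins Cfb was higher under SCDi in 13, in 12 of them with an interval above 0, by 0.08 to 0.79.

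Smaller differences ran in both directions. C1q in monocytes was higher under SCDi, at log2 ratios of 0.39 for C1qa, 0.36 for C1qb and 0.38 for C1qc. C1qa passed 1.5-fold with a stricter gate, at 0.70, and with the gate read on thinned cells, at 0.60. In macrophages the ratios were 0.17, 0.09 and 0.17. C1qa was higher under SCDi in 12 of 13 bins. C3 was lower under SCDi in macrophages at -0.40 (-0.45 to -0.35), in monocytes at -0.17 and in microglia at -0.36, and in 12 of 13 bins. In microglia it passed 1.5-fold under 2 of 9 alternatives, down to -0.85. Cfp was higher in macrophages at 0.38 (0.33 to 0.42) and level in monocytes at 0.00 (-0.05 to 0.06). Among macrophages the Cfp ratio was 0.42 outside the lipid-laden state and 0.03 (-0.06 to 0.11) inside it.

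In microglia C4b and Cfb were lower under SCDi, at -0.53 (-0.66 to -0.41) and -0.48 (-0.66 to -0.31), while C3ar1 was higher at 0.29 (0.20 to 0.37). Under 4 of 9 alternatives each C4b and Cfb passed 1.5-fold, down to -0.76 and -0.69. The microglia of the 2 libraries differed in depth, with medians of 18597.5 and 13871 UMIs, and the part of depth in these ratios was not tested.

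**Figure D4:**
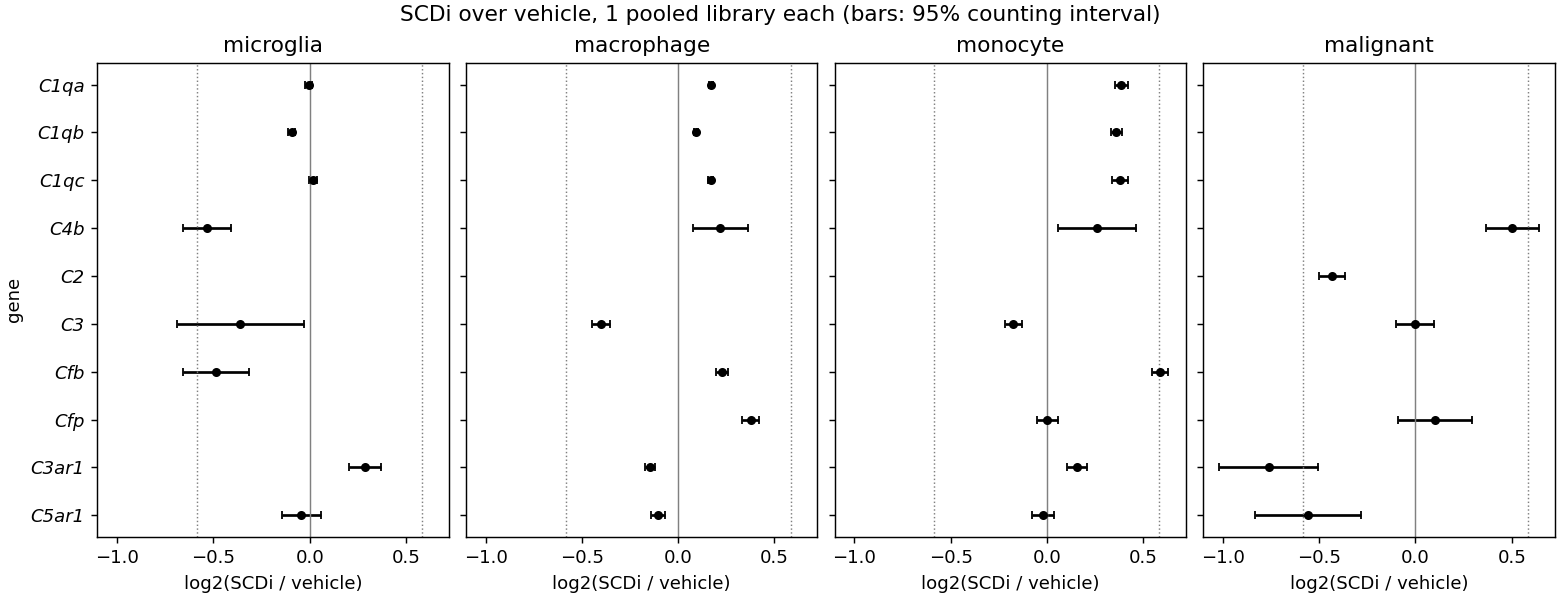
Log2 ratio of SCDi over vehicle (horizontal axes) for members with at least 100 UMIs in either library (rows) in 4 classes, points with 95% counting intervals, dotted lines at 1.5-fold. Cfb in monocytes at 0.59 is past the right line and C3ar1 in malignant cells at -0.76 past the left line, and C3 lies below 0 in the 3 phagocyte classes.

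No member reached 20 CPM in malignant cells, where 0.817% of genes passed. With a minimum of 0.5 CPM, 6 members were counted and 1 passed, C3ar1, which was lower, beside a background of 4.37% in either direction. C3ar1 went from 327 to 207 UMIs, a ratio of -0.76 (-1.02 to -0.51). It was -0.49 in malignant cells without a Ptprc, macrophage or microglia marker UMI, which ends the call. C2 was lower at -0.43 (-0.50 to -0.36), and past 1.5-fold at -0.62 in those cells. It was lower within the type I interferon state (-0.39) and outside it (-0.43). C4b was higher at 0.50 (0.37 to 0.64) and its near-copy C4a at 0.88 (0.76 to 1.01), while C3 was level at -0.00 (-0.10 to 0.09). C5ar1 was lower at -0.56, from 259 to 189 UMIs, and past 1.5-fold under 2 of 10 alternatives. Cfp was at 0.10.

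The smaller classes had more genes past 1.5-fold, so their members stand beside high backgrounds. In non-classical monocytes, with 92 and 79 cells, 4 of 8 members passed where 13.1% of genes did: Cfp at -1.71, from 222 to 50 UMIs, C1qb at -0.62, C3 at -0.61 and C3ar1 at 0.86. In NK cells all 3 members tested, the C1q genes, passed at 0.79 to 0.92 (background 9.58%), and all 3 turned to between -1.46 and -1.21 when the gate was read on thinned cells. In cDC2 1 of 6 passed (8.65%), C3 at 0.63. In migratory dendritic cells 2 of 5 passed (5.11%), C3 at 0.84 and Cfb at 0.70. In plasmacytoid dendritic cells 1 of 4 passed (11.9%), Cfp at 0.80, in T cells 1 of 4 (6.75%), Cfp at -1.29, and in B cells 1 of 5 (15.7%), C3ar1 at 1.37 from 11 and 35 UMIs. Of these, C1qb in non-classical monocytes, C3 in cDC2 and migratory dendritic cells, Cfp in T cells and C3ar1 in B cells changed direction under at least 1 alternative.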

How the data were processed

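Single-cell 3′ RNA libraries had been made from 4 sorted pools, 1 for each treatment and sort, and no pool was replicated. Per the submitters' processing notes, reads were processed with Cell Ranger 7.1.0 on mm10. The files deposited by the authors give unnormalized UMI counts for each gene in each barcode. The sources used here do not give the gene annotation or the treatment of intronic reads.

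Barcodes with at least 300 genes and at most 15% mitochondrial UMIs were kept. Immune-sort cells were assigned to the list of 8 markers with most members at a UMI, with at least 3 markers and a lead of at least 1. No complement gene was a marker. No doublet caller was run. Mixed cells were removed: other leukocytes with at least 4 macrophage or microglia markers, and phagocytes with at least 4 markers of any list outside the phagocytes and cDC2. Malignant cells were tumour-sort cells with a Krt8 UMI and fewer than 5 markers of each other list. These thresholds were set after the data were seen, and the mixed-cell rule after C1q levels in lymphocytes were seen.

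Counts were summed per class and library and given as CPM, scaled to a total of 1000000 UMIs. Intervals (95%) are exact Poisson for CPM, exact conditional binomial for ratios, with 0.5 counts added for the point estimate, and Clopper-Pearson for shares. They cover counting error only, so with 1 library per group there is no test and no p-value. Ratios past 1.5-fold were called if 1 or both libraries had at least 20 CPM of the gene. Cells were thinned to 2000 UMIs where shares of cells were compared, which left out shallower cells. The ratio interval was run on counts simulated under the Poisson model that it assumes. That run checks the code and cannot show how cells or mice vary. Python 3.11.15, numpy 2.4.6, scipy 1.17.1 and pandas 2.3.3 were used.

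The members and all gene lists were chosen with earlier results of these data known. All 10 members were described in classes with at least 50 cells in both libraries. Of 41 other complement genes, those with at least 20 CPM in any class were named, apart from a result that is not reported here. For 6 patterns, the 5 genes with the highest Pearson correlation over classes were named. Ratios within bins of marker difference and within states, states of malignant cells and a minimum of 0.5 CPM in malignant cells were added after the data were seen.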

Additional observations from a re-analysis of the deposited data

Results flagged for a closer look

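For 6 members the ratio of SCDi over vehicle pointed up in at least 1 immune class and down in another, each by more than 1.25-fold with a counting interval that excluded no change, which gave 24 values. The differences between classes were not tested, since each rests on 1 library per treatment.

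The C1q genes were among them. C1qa had log2 ratios of 0.39 in monocytes and 0.90 in NK cells, and -0.37 in non-classical monocytes. C1qb had 0.36 in monocytes, 0.42 in cDC2 and 0.92 in NK cells, and -0.62 in non-classical monocytes and -0.45 in migratory dendritic cells. C1qc had 0.38 in monocytes, 0.51 in cDC2 and 0.79 in NK cells, and -0.33 in non-classical monocytes. With the gate read on thinned cells the ratios in non-classical monocytes turned to 1.89 for C1qa, 1.45 for C1qb and 1.65 for C1qc, and those in NK cells turned to below 0. In cDC2, C1qb turned to -0.12 and C1qc to -0.14 with the stricter gate. In migratory dendritic cells C1qb turned to 0.04 with mixed cells kept and to 0.26 without the 1% of cells highest in the gene. The C1q levels of NK cells, cDC2 and migratory dendritic cells are those read as background in the report.

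C3 had log2 ratios of 0.63 in cDC2 and 0.84 in migratory dendritic cells, and -0.36 in microglia, -0.40 in macrophages and -0.61 in non-classical monocytes. Cfb had 0.59 in monocytes and 0.70 in migratory dendritic cells, and -0.48 in microglia. Cfp had 0.38 in macrophages and 0.80 in plasmacytoid dendritic cells, and -1.71 in non-classical monocytes and -1.29 in T cells. The C3 values in cDC2 and migratory dendritic cells and the Cfp value in T cells turned under an alternative too. C3 went from 17.3 to 26.9 CPM in cDC2 and from 11.3 to 20.2 CPM in migratory dendritic cells. In T, NK and B cells, which were below 20 CPM, C3 went from 6.62 to 11.4, 5.05 to 12.2 and 6.75 to 15.7 CPM. These values rest on 39 and 42, 9 and 16, and 9 and 25 UMIs, and their counting intervals overlap in each class. Cfb went from 22.6 to 36.8 CPM in migratory dendritic cells, and up in T, NK and B cells, to 16.8, 16.1 and 15.1 CPM. In these lymphocytes Cfb had 50 and 62, 9 and 21, and 14 and 24 UMIs. Plasmacytoid dendritic cells went down, C3 from 3.97 to 1.62 and Cfb from 9.25 to 4.85 CPM. Their values rest on only 6 and 2 UMIs of C3 and 14 and 6 UMIs of Cfb, with overlapping counting intervals. The part of background was not tested.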

How the results depend on the processing

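The class with the highest level was the same for all 10 members under the 8 alternatives run in each treatment. No paired analysis was possible because each treatment and sort is 1 library. Of 600 log2 ratios between treatments under alternatives, 469 moved by less than their counting error. In all, 60 changed direction: 44 of these had a counting interval that held 0, 9 had been past 1.5-fold, and 7 were within 1.5-fold with an interval excluding 0. Other values moved past their counting interval more often: 76 of 142 levels in the highest class, 128 of 201 state ratios and 48 of 58 shares. The shares include those of cells thinned to other depths. The count of members past 1.5-fold in microglia, 0 as reported, was 1 with mixed cells kept, 2 with the stricter gate, 3 with the gate read on cells thinned to 2000 UMIs, 2 with CPM averaged over single cells and 2 without the 1% of cells highest in the gene. In monocytes, 1 as reported, it was 3 with the stricter gate, 2 with the thinned gate and 0 with CPM averaged over single cells. In the 6 dendritic cell and lymphocyte classes together, 9 as reported, it was 18 with mixed cells kept, 19 with the thinned gate, 31 with no filter on low genes, 4 at a minimum of 50 CPM and 4 without the 1% of highest cells. The shares of all genes past 1.5-fold were not computed under these alternatives. These counts therefore have no background beside them and are not read as results about the members. Of the 7, C4b in macrophages was -0.08 and C1qa and C1qc in non-classical monocytes 1.89 and 1.65 with the thinned gate, C1qb and C1qc in cDC2 were -0.12 and -0.14 with the stricter gate, and C1qb in migratory dendritic cells was 0.04 with mixed cells kept and 0.26 without the 1% of highest cells. With the thinned gate, the reversed log2 ratios past 1.5-fold were C1qb in non-classical monocytes at 1.45, C3 in cDC2 at -0.36 and in migratory dendritic cells at -0.046, C1qa, C1qb and C1qc in NK cells at -1.24, -1.21 and -1.46, and C3ar1 in B cells at -0.18. With mixed cells kept, Cfp in T cells was 0.22 and C3ar1 in B cells -0.40. With a state of at least 1 marker, C5ar1 in type I interferon malignant cells under vehicle was -0.015. The cause of these changes was not tested.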

Other observations

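Endothelial cells, gated in the tumour sort and too few for the report's comparisons (40 and 32 cells), had 67.6 CPM of Cfb (48.0 to 92.4) under vehicle, from 39 UMIs, and 21.4 CPM (11.1 to 37.4) under SCDi, from 12 UMIs. Malignant cells of the same libraries had 0.121 and 0.100 CPM. Of the endothelial cells, 50% and 53.1% had a UMI of Krt8, the gene required of malignant cells. The same endothelial cells had no UMI of C1qa, C3ar1 or C5ar1 in either library, which allows up to 5.197 and 5.36 CPM (3 counts), and 724 and 314 CPM of Cd93.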
